A study of Mus musculus with 8 samples.

Results

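The keratin genes, the largest family of intermediate filament genes, were followed in mouse colon after activation of the Hedgehog (Hh) pathway in the stroma. Members were taken by symbol, as Krt followed by a number and at most 1 letter, which gave 53 of the 22180 genes measured by an array feature with a single gene symbol. By the epithelia they are known from, 6 were grouped as simple epithelial keratins, 21 as squamous keratins and 24 as hair keratins, and Krt88 and Krt222 were left without a class. No keratin passed the test between the groups. The largest shift in the simple class was that of Krt23, which was 1.69-fold higher in Ptch1ΔCol1 mice (95% interval 1.37 to 2.09, n = 4 each) with no overlap of the groups, and the other simple keratins differed less.

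Keratins build the intermediate filaments of epithelial cells. A filament needs a type I and a type II chain, and which pair a cell makes depends on its kind of epithelium. The simple epithelium of the colon is known for Krt8 with the type I partners Krt18, Krt19 and Krt20, with Krt20 strongest in differentiated cells towards the gut surface, while stratified squamous epithelia and hair follicles use other pairs. The type I genes lie together on mouse chromosome 11 and the type II genes on chromosome 15, and 27 and 26 of the genes measured lie there. Krt18 is the type I gene that lies beside Krt8 on chromosome 15.

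RNA was taken 7 days after tamoxifen from a 1 cm piece of whole colon whose lower end lay 1.5 cm above the anus. Tamoxifen was given into the peritoneum at 5 mg per 25 g of body weight. The Ptch1ΔCol1 mice carried Col1a2CreER and Ptch1fl/fl, with R26-LSL-tdTomato in 2 of the 4, so that tamoxifen inactivated the Hh receptor gene Ptch1, an inhibitor of the pathway, in cells that use the Col1a2 promoter of the Cre transgene. The 4 controls lacked Cre. They were 2 Ptch1fl/+ mice and 2 R26-tdTomato mice, and they were sampled in the same way. Each group held 3 females and 1 male, on a C57BL/6 background, and the male was replicate 3 of the Ptch1ΔCol1 mice and replicate 2 of the controls. The sources used here give no age for these mice. Col1a2 is a gene of stromal cells, so the epithelial cells that make most keratin were not the target of the Cre. In whole tissue, fewer cells of a type and less RNA per cell cannot be told apart.

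Values are log2 units of a robust multi-array average (RMA) on arrays of 1 colour. Array medians lay between 4.69 and 4.8 over all probe sets. Over the genes used here the median was 5.54 in the Ptch1ΔCol1 male and 5.64 to 5.71 in the other mice. Each array correlated with the 7 others at a mean of 0.992 to 0.993, apart from the Ptch1ΔCol1 male at 0.988. Gli1, the transcription factor gene that reports Hh activity, was between 6.36 and 6.42 in Ptch1ΔCol1 mice and between 4.81 and 5.20 in controls, and rose by a log2 fold change of 1.36 ± 0.10 (standard error), with a Benjamini-Hochberg adjusted p = 0.00203 from limma. Ptch1, itself a target of the pathway, was at 9.58, 9.21, 9.19 and 9.63 in Ptch1ΔCol1 replicates 1 to 4, against 8.48, 8.77, 8.61 and 8.49 in control replicates 1 to 4. The groups did not overlap, at 1.76-fold, yet Ptch1 did not pass the test (log2 fold change 0.81 ± 0.13, standard error, Benjamini-Hochberg adjusted p = 0.139 from limma). The paper states that the floxed part leaves out the start codon, so Ptch1 mRNA remains and the protein is truncated. The level of Ptch1 therefore does not check the deletion. Of 12 markers of colonic epithelium none passed the test in either direction, their median log2 fold change was 0.02, and their mean level per mouse was 11.44 to 11.53 in Ptch1ΔCol1 mice and 11.45 to 11.51 in controls. The groups did not overlap for 1 of the 12, or 8.33%, beside 5.37% of all genes. This was Hnf4a, between 11.32 and 11.44 in Ptch1ΔCol1 mice and between 11.45 and 11.58 in controls. All 12 markers were above the background measure described next.

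Whether a keratin was above background was judged from 1432 olfactory, vomeronasal and taste receptor genes, which are used mainly in sensory cells. Their median was 2.63, their 95th percentile 4.06 and their 99th percentile 5.07 log2 units. Averaged over the 8 mice, 21 keratins exceeded the 95th percentile and 9 exceeded the 99th. All 6 simple keratins were above both limits. Of the 21 squamous keratins 5 were above the 95th percentile and 2 above the 99th, and of the 24 hair keratins 9 and 1 were. The value of a probe set also depends on its probes, so the order of the keratins by level is not an order of their mRNA amounts.

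**Figure D1:**
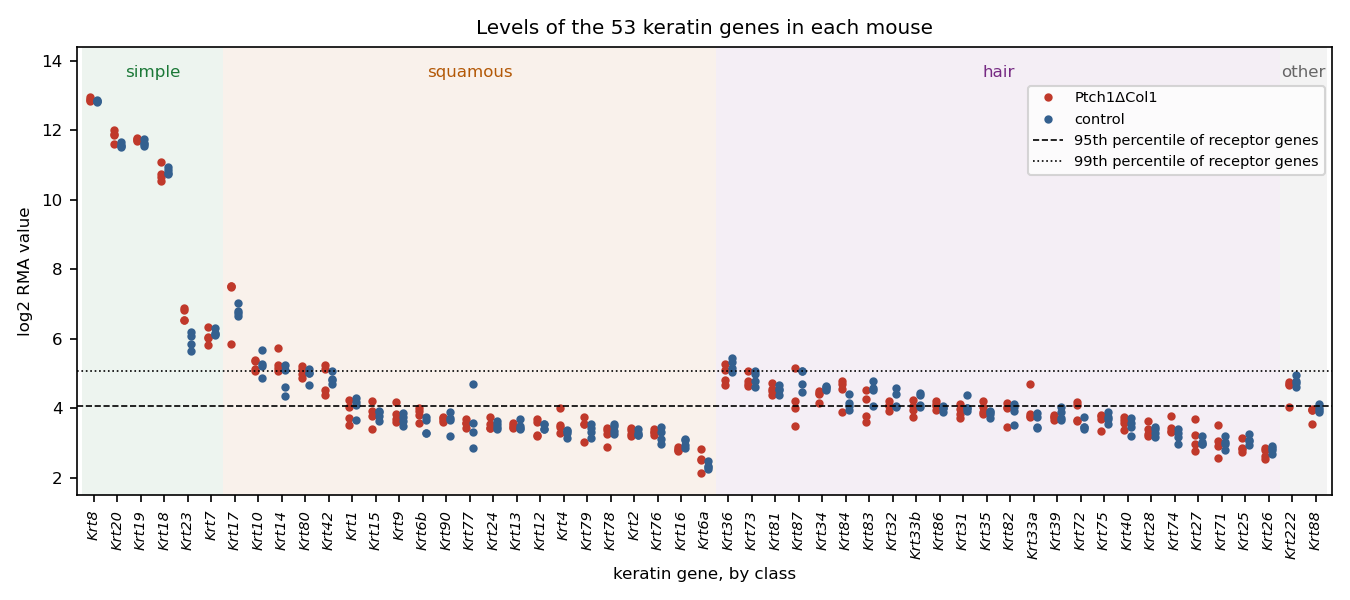
Level of each of the 53 keratin genes in every mouse (vertical axis, log2 RMA value), by class along the horizontal axis, with Ptch1ΔCol1 mice left of controls. The horizontal lines are the 95th and 99th percentiles of the receptor genes (4.06 and 5.07). The 6 simple keratins stand above both lines, and most squamous and hair keratins lie near or below the lower line.

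Over the whole family, 29 keratins were higher and 24 lower in Ptch1ΔCol1 mice, with a median log2 fold change of 0.01, beside a median of -0.01 over all genes, of which 47.0% were higher. None of the 53 passed an adjusted p of 0.05 in limma with Benjamini-Hochberg adjustment, a threshold that 0.0271% of all genes passed. At an unadjusted limma p below 0.05 there were 5 keratins (Krt6b, Krt20, Krt23, Krt34 and Krt72), or 9.43% of them, beside 9.22% of all genes. Of these 4 were higher, beside 4.31% of all genes, and Krt34 was lower, beside 4.91%. The groups did not overlap for 2 keratins, Krt23 and Krt34, or 3.77% of them, beside 5.37% of all genes. By class, the median log2 fold change was 0.07 for the simple, 0.04 for the squamous and -0.03 for the hair keratins. The hair median was 0.00 with each array centred on its median and 0.03 against the R26-tdTomato controls alone.

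**Figure D2:**
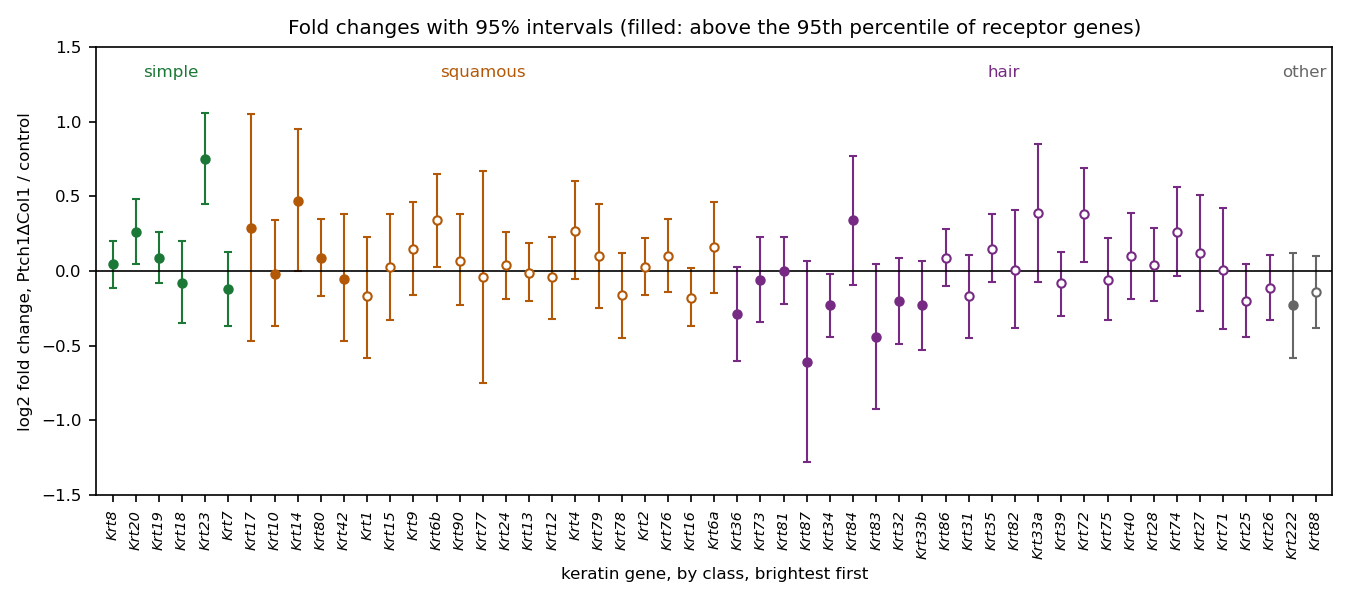
Log2 fold change of each keratin, Ptch1ΔCol1 over control (vertical axis), with its 95% interval from limma (n = 4 each), by class. Filled points are the 21 genes above the 95th percentile of the receptor genes. Krt23, at 0.75 with an interval of 0.45 to 1.06, has the interval farthest above 0.

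Of the 6 simple keratins, 4 were higher and 2 lower in Ptch1ΔCol1 mice. Krt23 is a type I keratin of gut and other epithelia that was first described as a gene induced by histone deacetylase inhibitors in human pancreatic cancer cells. It was at 6.83, 6.54, 6.90 and 6.55 in Ptch1ΔCol1 replicates 1 to 4, against 6.09, 5.86, 5.66 and 6.19 in control replicates 1 to 4. Every Ptch1ΔCol1 mouse was above every control, the male included. The log2 fold change was 0.75 ± 0.14 (standard error), with an unadjusted p = 0.000277 and a Benjamini-Hochberg adjusted p = 0.216 from limma. By p Krt23 had rank 28 of 22180 genes. The two-sided exact permutation test gave p = 0.0286, the smallest that 4 mice against 4 allow. The log2 fold change was 0.66 in females alone, 0.73 against the Ptch1fl/+ controls and 0.78 against the R26-tdTomato controls.

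Krt20, the type I keratin of differentiated colonocytes, was at 11.61, 11.88, 12.00 and 11.89 in Ptch1ΔCol1 replicates 1 to 4, against 11.55, 11.53, 11.66 and 11.58 in control replicates 1 to 4. Of the Ptch1ΔCol1 mice 3 were above every control, and replicate 1 lay within the range of the controls. It differed by 0.26 ± 0.10 on the log2 scale (standard error), with an unadjusted p = 0.021 and a Benjamini-Hochberg adjusted p = 0.487 from limma and p = 0.0571 in the two-sided exact permutation test. This is 1.20-fold, with a 95% interval of 1.03 to 1.40. The direction was the same in females alone, at 0.20.

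Krt8, the type II chain of the simple epithelium and the brightest keratin on the arrays, was at 12.85, 12.90, 12.95 and 12.87 in Ptch1ΔCol1 replicates 1 to 4, against 12.85, 12.84, 12.82 and 12.87 in control replicates 1 to 4. The groups overlapped, and the mice lay close together. The ratio was 1.03-fold with a 95% interval of 0.93 to 1.15 (adjusted p = 0.864 from limma with Benjamini-Hochberg adjustment). Krt19, a type I partner of Krt8, was at 11.68, 11.71, 11.78 and 11.74 in Ptch1ΔCol1 replicates 1 to 4, against 11.60, 11.74, 11.64 and 11.56 in control replicates 1 to 4. Its ratio of 1.07-fold had an interval of 0.95 to 1.20, and 1 control, the male, lay among the Ptch1ΔCol1 mice.

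Krt18, the usual partner of Krt8, was at 11.10, 10.74, 10.53 and 10.67 in Ptch1ΔCol1 replicates 1 to 4, against 10.77, 10.75, 10.86 and 10.96 in control replicates 1 to 4. The Ptch1ΔCol1 mice held both the highest and the lowest value, and the ratio was 0.95-fold with an interval of 0.78 to 1.15. A second probe set for Krt18 read 9.93, 9.60, 9.34 and 9.27 in Ptch1ΔCol1 mice, against 9.39, 9.40, 9.50 and 9.42 in controls. Its difference was 0.11, where that of the brighter probe set was -0.07, so the probe sets disagreed in direction, and in the two-sided exact permutation test p was 0.629 and 0.60. Krt7, a type II keratin of ducts, urothelium and mesothelium, was at 6.35, 6.01, 5.83 and 6.04 in Ptch1ΔCol1 replicates 1 to 4, against 6.30, 6.12, 6.16 and 6.13 in control replicates 1 to 4. The groups overlapped, with a ratio of 0.92-fold and an interval of 0.77 to 1.10.

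Averaged over the 6 simple keratins, the Ptch1ΔCol1 mice lay at 10.07, 9.96, 10.00 and 9.96 and the controls at 9.86, 9.81, 9.80 and 9.88, without overlap. With Krt23 left out, the means were 10.72, 10.65, 10.62 and 10.64 in Ptch1ΔCol1 mice and 10.61, 10.60, 10.63 and 10.62 in controls, and the groups overlapped. The class mean separated the groups only with Krt23 in it.

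**Figure D3:**
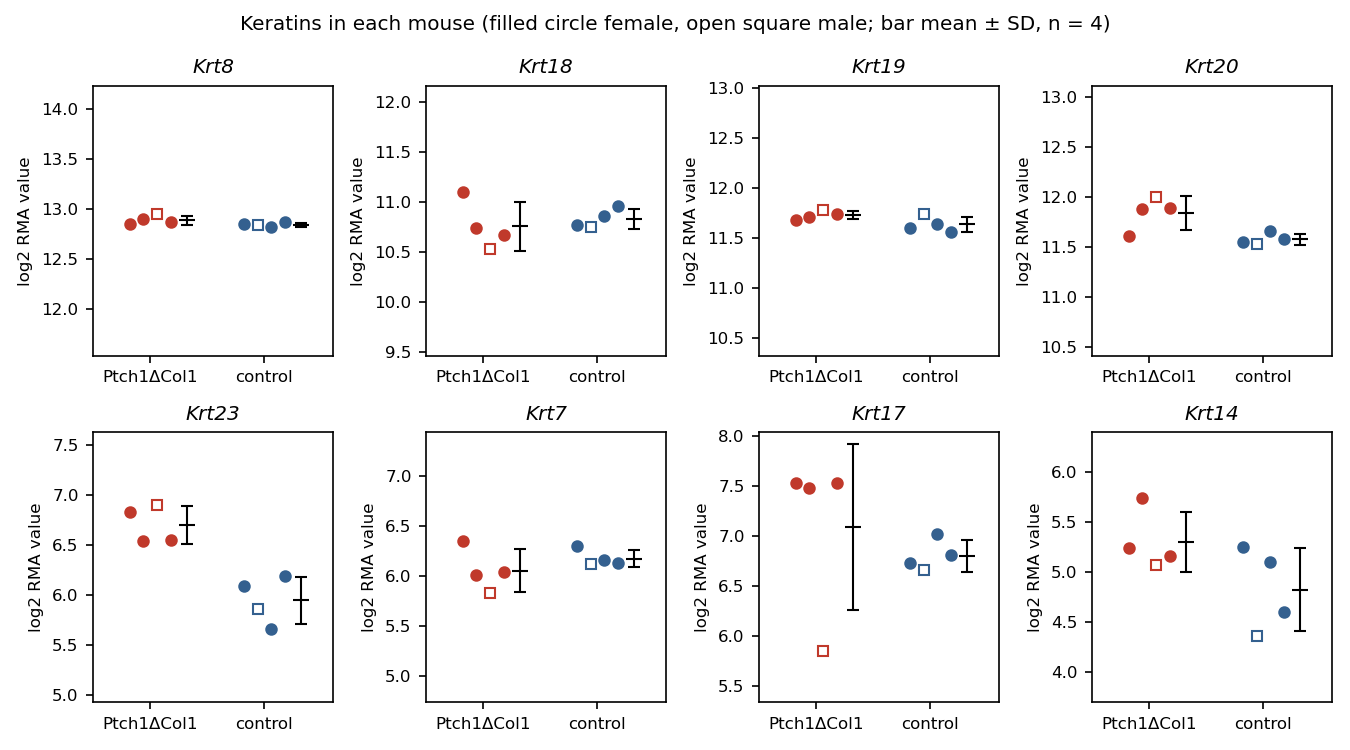
The 6 simple keratins with Krt17 and Krt14 in each mouse (vertical axes, log2 RMA value, all of the same span). Filled circles are females, open squares males, and bars the mean and SD of 4 mice. The groups are apart for Krt23, from 6.54 to 6.90 in Ptch1ΔCol1 mice and from 5.66 to 6.19 in controls, and overlap for the others.

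The promoters of Krt23 and Krt20, the simple keratins with the largest fold changes, are shown with those of Krt8 and Krt18, the usual pair of simple epithelia, so that the sequence before each start can be compared. They are RefSeq windows of 300 bases in build GRCm38.p6, 250 before the gene's start and 50 from it, printed 5′ to 3′ on the strand of the gene. The windows lie at chr11:99493071-99493370 (minus strand), chr11:99438104-99438403 (minus strand), chr15:102004293-102004592 (minus strand) and chr15:102027966-102028265 (plus strand). Capitals mark matches to TATAAA, the TATA box, or to TTTATG, a motif of the intestinal factors Cdx1 and Cdx2, on either strand, where CATAAA is TTTATG read on the other strand.
Krt23: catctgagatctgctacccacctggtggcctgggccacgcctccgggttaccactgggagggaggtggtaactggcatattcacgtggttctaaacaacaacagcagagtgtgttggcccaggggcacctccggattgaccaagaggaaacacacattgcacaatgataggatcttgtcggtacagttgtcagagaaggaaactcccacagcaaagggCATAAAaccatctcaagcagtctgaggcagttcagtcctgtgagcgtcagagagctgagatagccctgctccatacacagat
Krt20: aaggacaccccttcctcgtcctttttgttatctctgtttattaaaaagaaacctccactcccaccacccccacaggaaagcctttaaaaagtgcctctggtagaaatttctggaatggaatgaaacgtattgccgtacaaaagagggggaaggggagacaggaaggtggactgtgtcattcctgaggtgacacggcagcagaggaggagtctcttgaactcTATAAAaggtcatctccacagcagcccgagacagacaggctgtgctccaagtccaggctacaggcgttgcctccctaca
Krt8: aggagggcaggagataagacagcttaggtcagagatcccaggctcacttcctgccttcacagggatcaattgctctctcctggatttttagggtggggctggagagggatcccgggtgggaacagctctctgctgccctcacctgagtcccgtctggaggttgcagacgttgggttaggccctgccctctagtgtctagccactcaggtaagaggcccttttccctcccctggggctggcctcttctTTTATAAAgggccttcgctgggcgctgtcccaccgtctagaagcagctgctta
Krt18: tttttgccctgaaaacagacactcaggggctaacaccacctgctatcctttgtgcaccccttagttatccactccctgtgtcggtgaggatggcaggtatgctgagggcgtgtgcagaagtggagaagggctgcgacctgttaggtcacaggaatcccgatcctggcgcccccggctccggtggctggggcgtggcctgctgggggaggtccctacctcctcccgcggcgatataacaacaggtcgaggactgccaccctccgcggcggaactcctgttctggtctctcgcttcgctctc
The Krt20 window held TATAAA beginning 29 bases before the start, and the Krt23 window held CATAAA beginning 32 bases before it. In Krt8 the capitals hold TATAAA read on both strands, overlapping at the start itself, and the Krt18 window matched neither motif. Windows were found for 35 of the 53 keratins. TATAAA was in those of 19 of the 35 genes, beside 13.6% of 32851 windows of all genes. By class these were 2 of 5 simple, 4 of 13 squamous and 13 of 17 hair keratins with a window. TTTATG was in those of 16 of the 35 genes, beside 11.9%. The Gli motif GACCACCCA, searched on both strands, was in none of the 35, beside 0.253% of all windows. TATAAA and its reverse complement can overlap, as they do in Krt8, and a match is a description of the letters only.

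The squamous keratins were mostly near the level of the receptor genes. Of the 21 genes 13 were higher and 8 lower in Ptch1ΔCol1 mice, none passed the test, and none separated the groups. Those above the 95th percentile were Krt17, Krt10, Krt14, Krt80 and Krt42. Krt17, a type I keratin of hair follicles, glands and wounded epidermis, was at 7.53, 7.48, 5.85 and 7.53 in Ptch1ΔCol1 replicates 1 to 4, against 6.73, 6.66, 7.02 and 6.81 in control replicates 1 to 4. The 3 Ptch1ΔCol1 females were above every control, and the Ptch1ΔCol1 male was below every control. It differed by 0.29 ± 0.34 on the log2 scale (standard error), with a Benjamini-Hochberg adjusted p = 0.819 from limma. Without that male it was 0.71, with a Benjamini-Hochberg adjusted p = 0.0656 from limma, and with both males left out it was 0.66, with an adjusted p = 0.156 from limma.

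Krt14, the type I keratin of basal squamous cells, was at 5.24, 5.74, 5.07 and 5.16 in Ptch1ΔCol1 replicates 1 to 4, against 5.25, 4.36, 5.10 and 4.60 in control replicates 1 to 4. Only Ptch1ΔCol1 replicate 2 was above every control. The log2 fold change was 0.47 ± 0.21 (standard error), with a Benjamini-Hochberg adjusted p = 0.542 from limma. Krt5, its type II partner, was not measured on its own. A probe set annotated to Krt5 and Krt6a together read 4.49, 4.79, 4.94 and 4.57 in Ptch1ΔCol1 mice, against 4.86, 4.13, 4.57 and 4.46 in controls, with overlap.

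Krt10, of the cornifying layers of the epidermis, was between 5.08 and 5.40 in Ptch1ΔCol1 mice and between 4.87 and 5.67 in controls, with overlap. Its partner Krt1, below the background limit, was between 3.52 and 4.24 in Ptch1ΔCol1 mice and between 3.65 and 4.29 in controls. Krt80 was between 4.87 and 5.21 in Ptch1ΔCol1 mice, against 4.68 to 5.13 in controls, and Krt42 was between 4.37 and 5.24 in Ptch1ΔCol1 mice, against 4.71 to 5.08 in controls. All of these ranges overlapped. The mucosal pair of oesophagus and mouth, Krt4 and Krt13, was below the background limit. Krt4 was between 3.28 and 4.01 in Ptch1ΔCol1 mice and between 3.15 and 3.38 in controls, and Krt13 was between 3.42 and 3.58 in Ptch1ΔCol1 mice and between 3.41 and 3.69 in controls. Krt6b, a type II keratin induced in stressed epidermis, was also below it, at 3.82, 3.59, 3.93 and 4.02 in Ptch1ΔCol1 mice, against 3.74, 3.30, 3.29 and 3.67 in controls (log2 fold change 0.34, adjusted p = 0.516 from limma with Benjamini-Hochberg adjustment). Of the Ptch1ΔCol1 mice 3 were above every control. The other 12 squamous keratins were below the background limit, with log2 fold changes between -0.18 and 0.16.

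Of the 24 hair keratins 12 were higher and 12 lower in Ptch1ΔCol1 mice, and none passed the test. Those above the 95th percentile were Krt73, of the inner root sheath, and Krt32, Krt33b, Krt34, Krt36, Krt81, Krt83, Krt84 and Krt87, of the hair shaft and related hard epithelia such as nail and tongue papillae. Krt34 was at 4.49, 4.40, 4.14 and 4.43 in Ptch1ΔCol1 replicates 1 to 4, against 4.52, 4.59, 4.62 and 4.65 in control replicates 1 to 4. Every Ptch1ΔCol1 mouse was below every control, by a log2 fold change of -0.23 ± 0.09 (standard error), with a Benjamini-Hochberg adjusted p = 0.518 from limma and p = 0.0286 in the two-sided exact permutation test. At its narrowest the gap ran between 4.49 in Ptch1ΔCol1 replicate 1 and 4.52 in control replicate 1.

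Krt36, the hair keratin above the 99th percentile, was at 4.81, 4.68, 5.09 and 5.27 in Ptch1ΔCol1 replicates 1 to 4, against 5.34, 5.04, 5.17 and 5.44 in control replicates 1 to 4, with overlap. Krt87 had the widest spread of these genes, at 5.15, 3.50, 4.01 and 4.22 in Ptch1ΔCol1 mice, against 4.70, 4.46, 5.07 and 5.07 in controls. It differed by -0.61 ± 0.30 on the log2 scale (standard error), with a Benjamini-Hochberg adjusted p = 0.58 from limma, and replicate 1 of the Ptch1ΔCol1 mice held the highest value of all 8. The log2 fold changes of Krt32, Krt33b, Krt73, Krt81, Krt83 and Krt84 were -0.20, -0.23, -0.06, 0.00, -0.44 and 0.34, and the groups overlapped for each of them. Krt72, of the inner root sheath cuticle, was below the background limit, at 3.64, 4.09, 4.18 and 3.67 in Ptch1ΔCol1 mice, against 3.46, 3.41, 3.46 and 3.75 in controls (log2 fold change 0.38, adjusted p = 0.50 from limma with Benjamini-Hochberg adjustment). Its groups overlapped through control replicate 4. The other 14 hair keratins, all below the background limit, had log2 fold changes between -0.20 and 0.39.

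Of the keratins without a class, Krt222 was above the 95th percentile, at 4.71, 4.75, 4.04 and 4.67 in Ptch1ΔCol1 replicates 1 to 4, against 4.96, 4.62, 4.72 and 4.79 in control replicates 1 to 4. The low value is that of the Ptch1ΔCol1 male. Krt88 was below the background limit, between 3.56 and 3.97 in Ptch1ΔCol1 mice and between 3.89 and 4.11 in controls.

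Mesothelium, the outer lining of the colon wall, makes simple keratins too, and its markers varied between the pieces. The mean of 8 mesothelial genes was 7.64, 7.35, 4.46 and 6.94 in Ptch1ΔCol1 replicates 1 to 4, and 7.42, 5.56, 7.05 and 6.97 in control replicates 1 to 4. All 8 genes were lowest in the male of both groups. Upk3b, a uroplakin of mesothelium, was at 4.55 in the Ptch1ΔCol1 male and between 8.37 and 9.07 in the females of that group, against 6.34 in the control male and between 8.31 and 8.83 in the control females.

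Of the 53 keratins, 6 were lower in the male of each group than in every female of the same group, namely Krt7, Krt14, Krt17, Krt18, Krt83 and Krt222. That is 11.3% of them, beside 6.42% of all genes. All 6 were among the 21 keratins above the 95th percentile, and the share among all genes above that limit was not counted. Higher in the male of each group than in every female of the same group were 5 keratins, Krt9, Krt19, Krt28, Krt71 and Krt86, or 9.43%, beside 8.81% of all genes. With 1 male in each group, sex and the mesothelial content of the piece cannot be told apart. For Krt17 the females alone were between 7.48 and 7.53 in Ptch1ΔCol1 mice and between 6.73 and 7.02 in controls, without overlap. It did not pass the test in females alone (adjusted p = 0.156 from limma). Groups of 3 mice separate more readily than groups of 4, and the share of all genes that did so was not counted. The mesothelial means of the females overlapped, at 6.94 to 7.64 in Ptch1ΔCol1 females and 6.97 to 7.42 in control females. The part of mesothelium in the keratin values was not tested. Krt23 was not among these genes, and the Ptch1ΔCol1 male held its highest value.

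**Figure D4:**
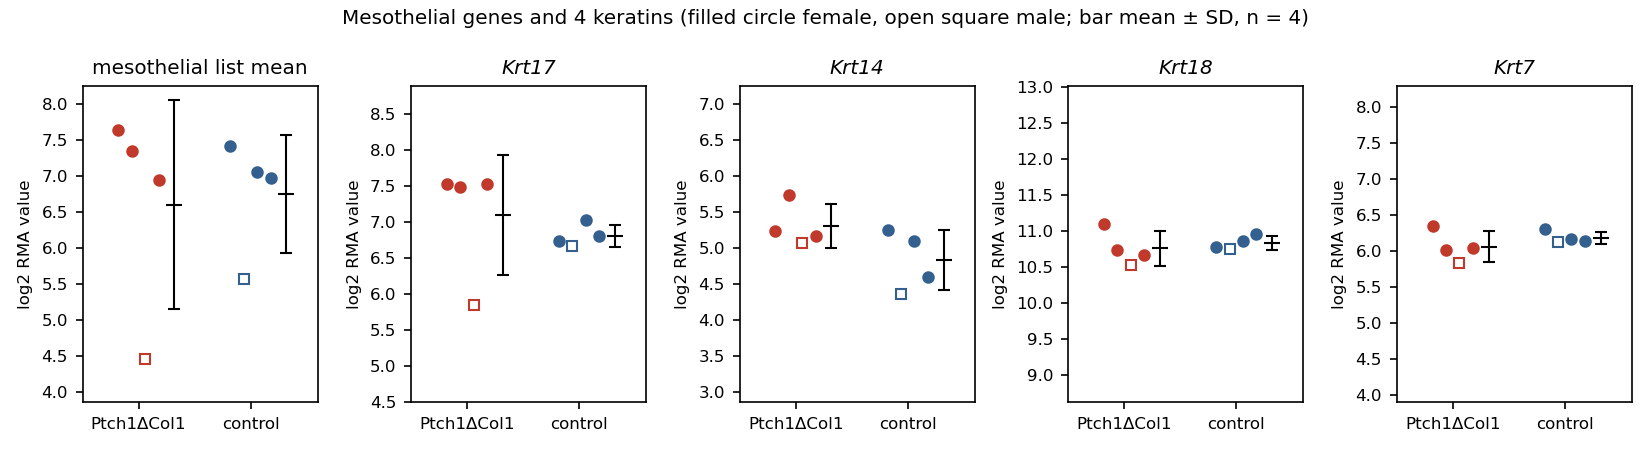
Mean of 8 mesothelial genes, Krt17, Krt14, Krt18 and Krt7 in each mouse (vertical axes, log2 RMA value, all of the same span). Filled circles are females, open squares the male of each group, and bars the mean and SD of 4 mice. The male is the lowest mouse of its group in every panel, at 4.46 in Ptch1ΔCol1 mice and 5.56 in controls for the mesothelial mean.

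Type I and type II chains form filaments together, so 5 pairs were compared across the 8 mice. Krt8 and Krt20 had a Pearson r of 0.80 (exact permutation p = 0.01, adjusted over the 5 pairs 0.052) and a Spearman rho of 0.65 (exact permutation p = 0.087, adjusted 0.24). Without the 2 mice farthest from the median of Krt8, both from the Ptch1ΔCol1 group, r was 0.34. Leaving them out also narrows the range of Krt8, so the lower r cannot show whether the relation rested on those mice. On deviations from the group means r was 0.64, and within the groups it was 0.84 in Ptch1ΔCol1 mice and -0.53 in controls. For Krt8 and Krt18, r was -0.61 and rho -0.58 (exact permutation p = 0.11 and 0.14, adjusted 0.23 and 0.24), and without the same 2 mice r was -0.047. Krt8 with Krt19 gave r = 0.50 and rho = 0.37 (exact permutation p = 0.21 and 0.36), Krt4 with Krt13 gave r = -0.58 and rho = -0.62 (exact permutation p = 0.14 and 0.11) and Krt1 with Krt10 gave r = -0.061 and rho = -0.19 (exact permutation p = 0.88 and 0.66), and none passed after adjustment. Both genes of the squamous pair Krt4 and Krt13 lay below the background limit.

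Genes for the proteins that anchor keratin filaments differed little between the groups. Of 13 genes of desmosomes and keratin linkers, 10 were higher and 3 lower in Ptch1ΔCol1 mice, none passed the test, and their log2 fold changes lay between -0.04 and 0.13. Pkp2, a desmosomal plaque protein, averaged 8.66 ± 0.13 in Ptch1ΔCol1 mice and 8.53 ± 0.19 in controls (SD, n = 4 each). Dsp, desmoplakin, which ties keratin to the desmosome, averaged 11.34 ± 0.12 in Ptch1ΔCol1 mice and 11.26 ± 0.04 in controls. Plec, plectin, a cytoskeletal linker, averaged 8.98 ± 0.13 in Ptch1ΔCol1 mice and 8.94 ± 0.02 in controls.

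Of 15 other intermediate filament genes, 7 were higher and 8 lower in Ptch1ΔCol1 mice, with a median log2 fold change of -0.01 and none past the test. The groups did not overlap for 3 of them, or 20.0%, beside 5.37% of all genes. They were Des, which was higher in Ptch1ΔCol1 mice, and Lmna and Bfsp2, which were lower. The log2 fold changes of Lmna and Bfsp2 were -0.12 and -0.14, and Bfsp2 was below the background limit. The nuclear lamin gene Lmna was named after its values were seen. Des, desmin of muscle cells, was at 12.00, 12.00, 12.04 and 12.18 in Ptch1ΔCol1 mice, against 11.98, 11.88, 11.90 and 11.80 in controls (log2 fold change 0.16, adjusted p = 0.575 from limma with Benjamini-Hochberg adjustment). Nes, nestin, of progenitor and vascular cells, was at 5.12, 5.27, 5.01 and 5.06 in Ptch1ΔCol1 mice, against 4.47, 5.04, 4.85 and 4.56 in controls (log2 fold change 0.38, adjusted p = 0.454 from limma with Benjamini-Hochberg adjustment). Its groups overlapped, with 3 of 4 Ptch1ΔCol1 mice above every control. Nefl was lower, with a log2 fold change of -0.28, and its groups overlapped too.

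Genes that go with squamous and hair keratins in skin were counted as well. Of 19 squamous epithelial genes 9 were higher and 10 lower in Ptch1ΔCol1 mice, with a median of -0.07 and none past the test. The groups did not overlap for 2 of them, or 10.5%, beside 5.37% of all genes, and these lay in opposite directions. Sprr2b, a small proline-rich protein of the cornified envelope that gut epithelium also makes, was at 9.41, 9.15, 9.16 and 8.93 in Ptch1ΔCol1 mice, against 8.56, 8.66, 8.54 and 8.60 in controls, with no overlap (log2 fold change 0.57, standard error 0.10, adjusted p = 0.217 from limma with Benjamini-Hochberg adjustment). Pkp1, plakophilin of the squamous desmosome, was at 8.47, 8.30, 8.51 and 8.48 in Ptch1ΔCol1 mice, against 8.52, 8.59, 8.55 and 8.70 in controls, so that every Ptch1ΔCol1 mouse was below every control (log2 fold change -0.15, adjusted p = 0.606 from limma with Benjamini-Hochberg adjustment). Sprr1a was at 6.16, 6.76, 6.45 and 6.22 in Ptch1ΔCol1 mice, against 6.23, 6.19, 5.65 and 5.90 in controls. Its groups overlapped (log2 fold change 0.40, adjusted p = 0.519 from limma with Benjamini-Hochberg adjustment). Of the 19 genes 10 were above the 95th percentile of the receptor genes, among them Col17a1 and Dsc3, the latter with a log2 fold change of -0.34. Trp63 and Dsg3, which mark basal squamous cells and were singled out after their values were seen, were below the background limit, with means of 3.53 and 3.37 in Ptch1ΔCol1 mice and 3.48 and 3.49 in controls. Of 9 hair follicle genes 2 were higher and 7 lower, with a median of -0.06. The lowest log2 fold change among them was -0.33, for Foxn1, whose groups overlapped (adjusted p = 0.445 from limma with Benjamini-Hochberg adjustment). Of 51 keratin-associated protein genes, which encode the matrix of the hair shaft, 28 were higher and 23 lower, with a median of 0.02. At an unadjusted limma p below 0.05 there were 6 of these, or 11.8%, beside the 9.22% of all genes, and 7 of the 51 were above the 95th percentile of the receptor genes. The groups did not overlap for 2 of the 51, or 3.92%, beside 5.37% of all genes. These were Krtap19-2 and Krtap4-6, both lower (log2 fold changes -0.65 and -0.31) and below the background limit. Krtap4-16, also below it, was higher, at 0.52, with overlap. Of 3 urothelial genes 2 were higher and 1 lower, with log2 fold changes between -0.01 and 0.11.

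The fold changes of Krt23, Krt20 and Krt17 were followed through each alternative way of processing. Krt23 stayed between 0.66 and 0.84 and Krt20 between 0.20 and 0.34. Krt17 ran from 0.15 to 0.71, its highest value being the one without the Ptch1ΔCol1 male.

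**Figure D5:**
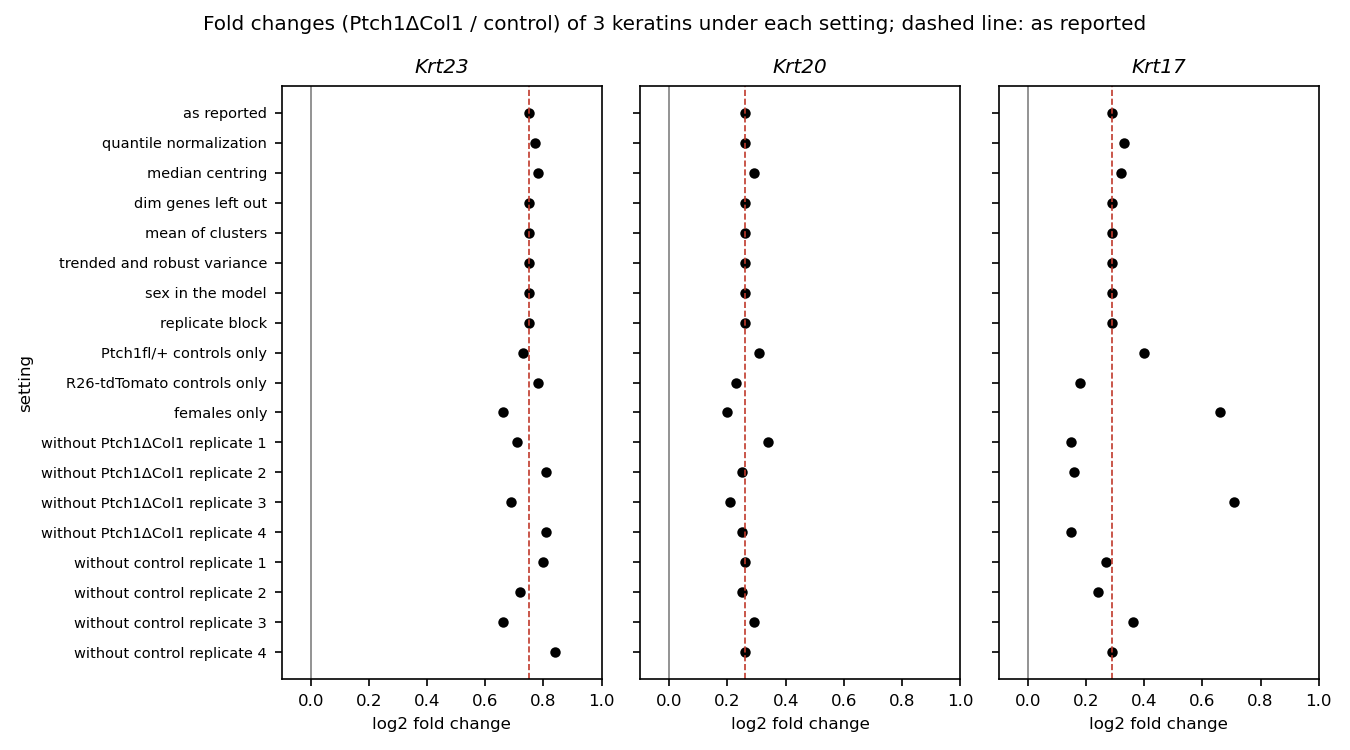
Log2 fold change, Ptch1ΔCol1 over control (horizontal axes), of Krt23, Krt20 and Krt17 under each setting (rows). The dashed line is the value as reported. Krt23 and Krt20 stay near it, from 0.66 to 0.84 and from 0.20 to 0.34, while Krt17 moves to 0.71 without Ptch1ΔCol1 replicate 3 and to 0.66 in females only.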

How the data were processed

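Whole colon of 4 Ptch1ΔCol1 mice and 4 controls was measured on Affymetrix Mouse Gene ST 2.0 arrays. The authors processed them by robust multi-array average (RMA), and each deposited value is a log2 value with 2 decimals. No software version is stated in the sources used here. The values were used as deposited. Of 41345 probe sets, 23521 had 1 gene symbol, and 23328 of these took the current symbol of a RefSeq table of GRCm38.p6. Left out were 1820 probe sets with several symbols and 16004 without a symbol, and the brightest was used for the 1082 genes with several, which left 22180 genes. Keratins of similar sequence may share signal, which was not tested.

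The test across all genes was limma's lmFit and eBayes (limma 3.58.1, R 4.3.3), with Benjamini-Hochberg adjustment and a threshold of 0.05. This step was tried on simulated data whose changes were larger than that of any keratin here. Its power at shifts of the size seen for keratins was not tested. For single keratins a two-sided exact permutation test used all 70 relabellings of the mice and can reach 0.029 at the lowest. Each array holds another animal, and the small number of arrays limits the precision. Intervals are 95% intervals from limma. Motifs were searched as exact letters.

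The keratins, their classes and the other gene lists were chosen with earlier results of these data known. Values are given for all simple keratins, keratins above the 95th percentile of the receptor genes, keratins without overlap or with an unadjusted p below 0.05, the pairs compared, and up to 4 genes of each other list. The alternatives were quantile normalization, median centring, dim genes left out, the mean of a gene's probe sets, a trended and robust variance, sex or replicate number as a term, the Ptch1fl/+ or the R26-tdTomato controls alone, the females alone, and leaving out each mouse.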

Additional observations from a re-analysis of the deposited data

Results flagged for a closer look

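Among 52 groups of 4 mice, 3 keratin values stood far from the other mice of their group, where chance flags about 1 in 20 groups. Krt17 was at 5.85 in Ptch1ΔCol1 replicate 3, the male, and at 7.48 to 7.53 in the other Ptch1ΔCol1 mice. Krt222 was at 4.04 in the same male and at 4.67 to 4.75 in the other Ptch1ΔCol1 mice. Krt72 was at 3.75 in control replicate 4 and at 3.41 to 3.46 in the other controls, all below the 95th percentile of the receptor genes at 4.06.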

How the results depend on the processing

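No keratin passed the threshold under any of the 18 alternatives, and the smallest adjusted p from limma with Benjamini-Hochberg adjustment was 0.0656, for Krt17 without Ptch1ΔCol1 replicate 3. Keratins at an unadjusted limma p below 0.05 numbered 5 as reported, 9 with sex in the model and 3 to 8 with a mouse left out. The share of all genes at that p was not counted under the alternatives, so these numbers have no background beside them. With each mouse left out in turn, the number past the threshold was 0 throughout, and the median log2 fold change was 0.05 to 0.09 for the simple keratins, 0.02 to 0.07 for the squamous and -0.06 to -0.00 for the hair keratins. With genes below percentile 40 left out (a mean of 4.67), 13 keratins remained and the hair median was -0.17, over 2 genes. At the stricter 99th percentile 9 keratins were above background, against 21 at the 95th.

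Of 26 keratins followed, 18 kept their direction under all alternatives. The other 8 turned, among them Krt32, reported at -0.20. Krt10 was at 0.01 after quantile normalization, after median centring and in females only, and at 0.17 against R26-tdTomato controls. Krt13 was at 0.02 after median centring, 0.01 in females only and 0.07 against R26-tdTomato controls. Krt18 was at 0.02 with its probe sets averaged and 0.00 against Ptch1fl/+ controls. Against R26-tdTomato controls Krt32 was at 0.02 and Krt80 at -0.02. Krt73 was at 0.01 against Ptch1fl/+ controls and 0.04 in females only, and Krt81 at -0.07 and -0.05. With each mouse left out, log2 fold changes ran from -0.15 to 0.12 for Krt10, -0.04 to 0.05 for Krt13, -0.19 to 0.00 for Krt18, -0.19 to 0.10 for Krt42, -0.15 to 0.01 for Krt73, 0.00 to 0.15 for Krt80 and -0.06 to 0.06 for Krt81. The cause was not tested.

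Deviations from the group means of same-numbered mice correlated at 0.025, -0.013, -0.046 and -0.024. With so few mice such correlations cannot show whether the replicate numbers paired the mice. With the replicate block, 0 keratins passed the threshold, and 7 had an unadjusted limma p below 0.05. The share of all genes with the block was not counted. Krt23 had the smallest adjusted p with the block, at 0.377 from limma.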
